A study of Oryza sativa with 12 samples.

Results

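Transcripts of 4 rice loci that encode root transporters of manganese, zinc and cadmium are described here in the roots of a super-hybrid rice and its parental lines. The loci are Os07t0257200 (NRAMP5), Os07t0258400 (NRAMP1), Os07t0232900 (HMA3) and Os06t0700700 (HMA2), and every annotated transcript of them was taken. This gave 5 of the 42081 transcripts in the table and 4 of its 34791 loci. The annotation described NRAMP5 as similar to OsNramp1, the first NRAMP1 transcript as OsNramp1 itself and the second NRAMP1 transcript as similar to a metal transporter. HMA3 was described as a P-type ATPase of a transporter family for potassium, magnesium, cadmium, copper, zinc, sodium, calcium and hydrogen ions, which does not single out heavy metals. HMA2 was described as similar to a heavy metal transporting ATPase of the P1B type. All of these descriptions fit the families of the 4 genes. The locus numbers place NRAMP5, NRAMP1 and HMA3 on chromosome 7 and HMA2 on chromosome 6. In the RefSeq gene order 5 genes, of which 2 code for proteins, lay between NRAMP5 and NRAMP1.

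Proteins of the NRAMP family carry divalent metal ions into the cytosol, driven by protons. In rice, NRAMP5 sits in the plasma membrane of the exodermis and endodermis of the root and is the main route by which manganese, and with it cadmium, enters the plant. NRAMP1, its close relative, carries iron, manganese and cadmium. The HMA proteins are ATPases that pump metal ions across a membrane, zinc or cadmium in the case of HMA2 and HMA3. HMA3 lies in the tonoplast of root cells and shuts cadmium into the vacuole, which keeps it from the shoot, and HMA2 loads zinc and cadmium into the vascular tissue for transport to the shoot. Rice lines are known to differ in cadmium content through their alleles of HMA3, some of which encode a protein that does not transport.

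Root RNA was sequenced from the paternal line R9308, the maternal line Xieqingzao B and their hybrid Xieyou9308, with roots taken at tillering and at heading. All plants were sown in the field and then grown on nutrient solution, and no metal treatment is described. For RNA, 2 roots of each genotype were taken at each stage, which gave 12 libraries in 6 groups of 2. The study describes both libraries of a group as biological replicates. The p-values of the fits set differences against the spread between such replicates, estimated over all groups of a fit. All reads were mapped to the genome of Nipponbare, a variety that is none of the 3 genotypes, and an effect of sequence differences on the counts was not tested.

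The libraries held between 8209696 and 15830233 counts assigned to transcripts. Levels are given as the authors' RPKM, in which counts are scaled by transcript length and library total, so that they can be set side by side between genes. All 4 root marker loci were counted in each library, with a summed level of 508 to 1761 RPKM. Of 13 loci for photosynthetic proteins, used as markers of green tissue, between 10 and 13 had counts in each library. Their summed level was 7230 RPKM in replicate 1 of R9308 at tillering and 16.8 RPKM in replicate 2. In the other groups it was 4.53 to 29.0 RPKM at tillering, 5.44 to 10.6 RPKM in R9308 at heading, 132 to 214 RPKM in Xieqingzao B at heading and 166 to 367 RPKM in the hybrid at heading. For the 4 genes, the differences from R9308 at tillering described here, other than the interaction tests, are also given without its replicate 1.

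**Figure D1:**
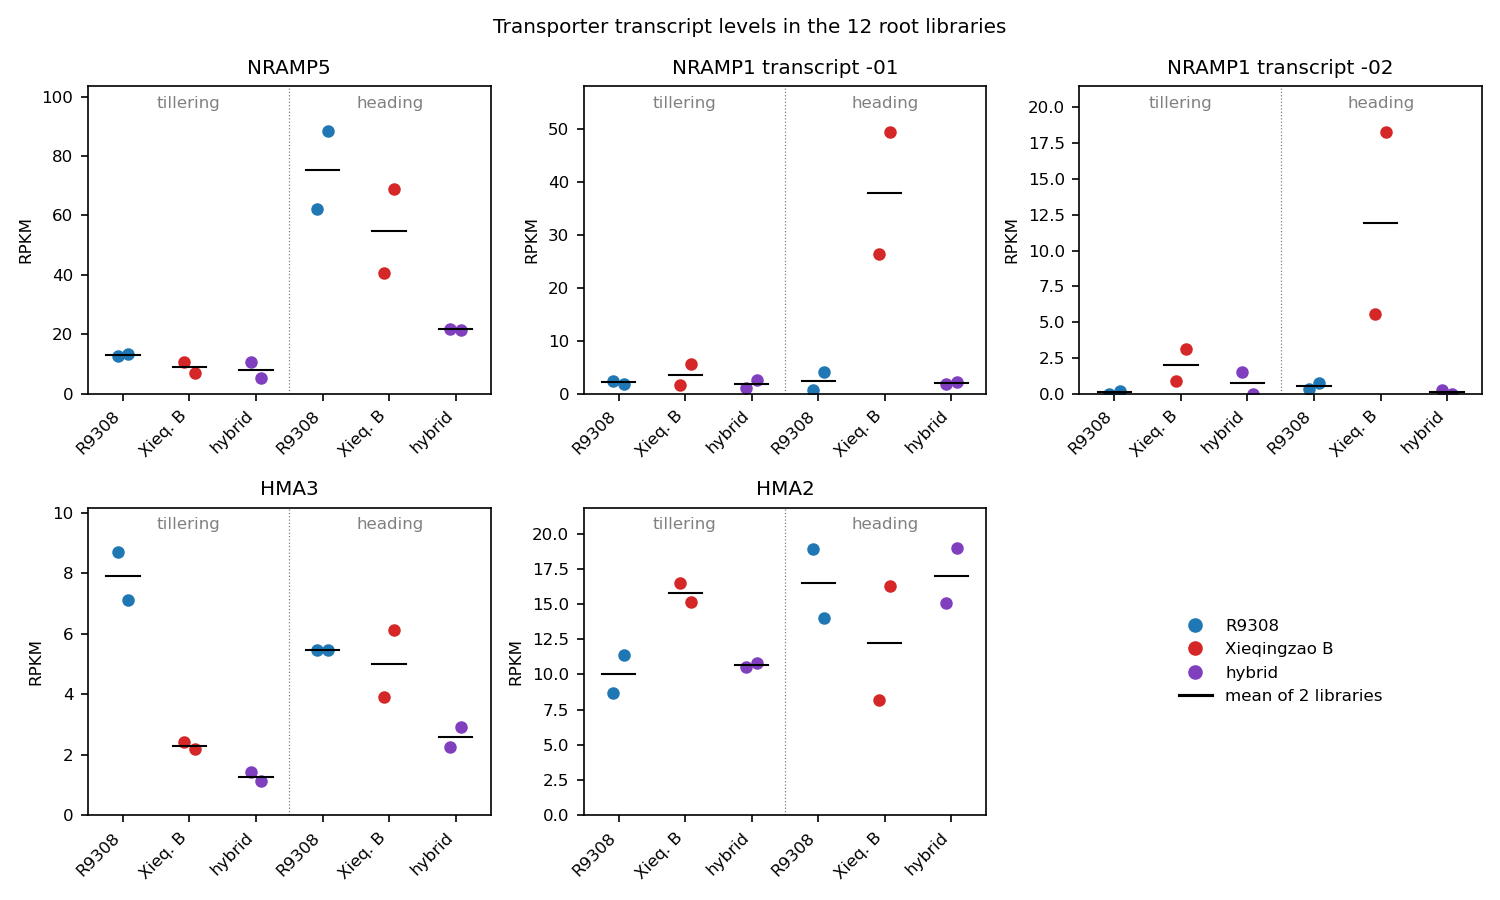
Levels of the 5 transcripts (vertical axis, RPKM, a separate scale for each panel) in the 2 libraries (points) of each genotype at the tillering and heading stages, with the mean of the 2 libraries as a line. NRAMP5 was between 21.5 and 88.3 RPKM in the 6 heading libraries and between 5.35 and 13.3 RPKM in the 6 tillering libraries, and both NRAMP1 transcripts were highest in the 2 heading libraries of Xieqingzao B.

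NRAMP5 had the highest mean level of the 4 genes over the 12 libraries (30.2 RPKM, beside 13.7 RPKM for HMA2, 8.31 RPKM for the main NRAMP1 transcript and 4.09 RPKM for HMA3), and it was the gene called between the stages. At tillering Os07t0257200-01, its single transcript (2006 bases), was at 12.8 and 13.3 RPKM in R9308, at 10.8 and 7.0 RPKM in Xieqingzao B and at 10.6 and 5.35 RPKM in the hybrid. At heading the levels were 62.1 and 88.3 RPKM in R9308, 40.5 and 68.9 RPKM in Xieqingzao B and 21.8 and 21.5 RPKM in the hybrid. Every heading library was above every tillering library, a separation in this direction that 1.95% of the 29560 transcripts tested showed. NRAMP5 rose by 2.24 (SE 0.24) on the log2 scale as the mean over the 3 genotypes, a 4.72-fold rise (edgeR's quasi-likelihood test, Benjamini-Hochberg adjusted p = 0.00405). It was the 1 transcript of the 5 called in this contrast, where 11.2% of all transcripts tested were called and 4.02% were called higher. A call required an adjusted p of at most 0.05 and a change of at least 2-fold. With stages exchanged within each genotype, an exact two-sided permutation test on log2(RPKM + 1) gave p = 0.00926 for NRAMP5 (12 libraries, higher at heading in 3 of 3 genotypes), the smallest value that its 216 arrangements allow.

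Within single genotypes, NRAMP5 rose in R9308 by 2.59 (SE 0.43) on the log2 scale (edgeR's quasi-likelihood test, adjusted p = 0.0413), where 1.2% of transcripts were called and 0.47% were called higher. The difference was 2.57 (SE 0.43, adjusted p = 0.0562 in edgeR's test) in Xieqingzao B and 1.55 (SE 0.42, adjusted p = 0.0795) in the hybrid, and neither Os07t0257200-01 value passed the test. In these contrasts 0.088% and 1.68% of all transcripts were called. The hybrid's stage difference was smaller than that of R9308 by 1.04 on the log2 scale (SE 0.58, adjusted p = 0.413 in edgeR's interaction test) and smaller than that of Xieqingzao B by 1.02 (SE 0.58, adjusted p = 0.433), so that a difference between the genotypes in their response to stage did not pass. Without replicate 1 of R9308 at tillering, the library with high green tissue markers, the NRAMP5 rise was 2.55 in R9308 (edgeR adjusted p = 0.154) and 2.23 for the mean (adjusted p = 0.00980). The call in R9308 was lost when any 1 library other than those of the hybrid at tillering was left out (10 of 12 libraries). The call for the mean over the genotypes was kept in all 12 of these fits, with adjusted p between 0.00123 and 0.0240.

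In the order of its levels, NRAMP5 went from 75.2 ± 18.5 RPKM in R9308 at heading over 54.7 ± 20.1 in Xieqingzao B at heading, 21.6 ± 0.213 in the hybrid at heading, 13.0 ± 0.324 in R9308 at tillering and 8.90 ± 2.69 in Xieqingzao B at tillering to 7.96 ± 3.68 in the hybrid at tillering (SD, n = 2 libraries each). The libraries of both parental lines overlapped at heading, as did those of Xieqingzao B and the hybrid at tillering. The other neighbours in this order were separated. Of all transcripts tested, 21.4% were separated at tillering with Xieqingzao B below R9308. The share for the hybrid at heading above R9308 at tillering was not taken. At heading both hybrid libraries lay below all 4 parental libraries, where 26.8% of all transcripts tested were lower in this way than in R9308 and 37.7% lower than in Xieqingzao B, and the hybrid mean was 33.3% of the mid-parent value of 64.9 RPKM. The share lower than both parental lines at once was not taken. The log2 difference of NRAMP5 (Os07t0257200-01) at heading was -1.79 (SE 0.31) between the hybrid and R9308, 3.45-fold lower, with an adjusted p of 0.0851 in edgeR's quasi-likelihood test, and -1.20 (SE 0.31) between the hybrid and Xieqingzao B, 2.30-fold lower, with an adjusted p of 0.0720. Neither passed. Both passed in 3 of 7 alternative settings. Among these were DESeq2 (adjusted p = 3.77e-05 and 0.00705) and counts summed over the transcripts of each locus (adjusted p = 0.0374 and 0.0391 in edgeR's test). In the settings where they did not pass, the adjusted p of edgeR's test reached 0.187 and 0.154. At tillering the hybrid was at 72.6% of the mid-parent value. Both of its libraries were then below those of R9308, as for 25.3% of all transcripts tested, and overlapped with those of Xieqingzao B, with log2 differences of -0.75 (SE 0.47, edgeR adjusted p = 0.444) against R9308 and -0.16 (SE 0.47, adjusted p = 0.932) against Xieqingzao B. Between the parental lines the log2 difference of Xieqingzao B from R9308 was -0.58 (SE 0.47, edgeR adjusted p = 0.879) at tillering and -0.59 (SE 0.31, adjusted p = 0.276) at heading. Without replicate 1 of R9308, the NRAMP5 differences from R9308 at tillering were -0.76 for the hybrid and -0.62 for Xieqingzao B.

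**Figure D2:**
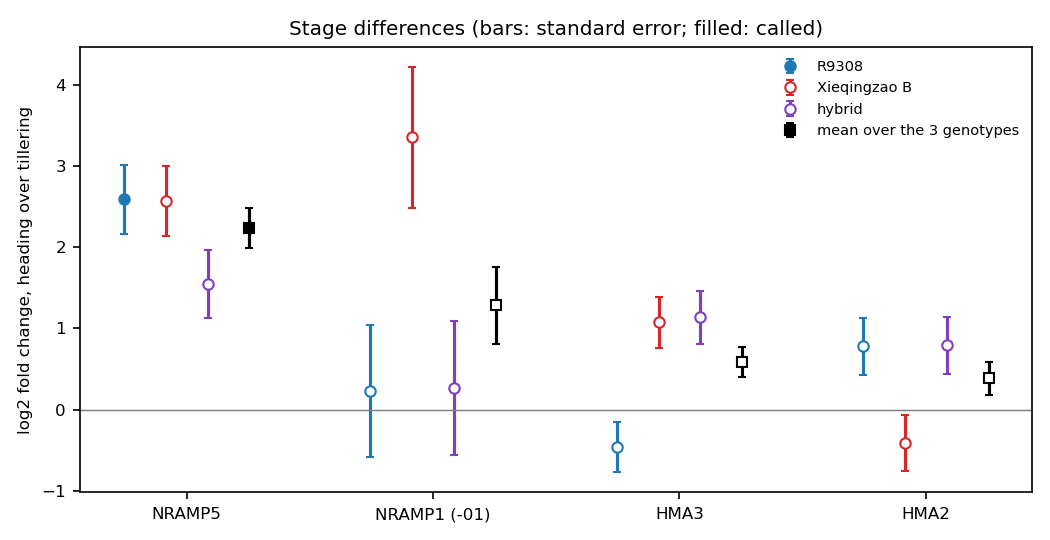
Log2 fold change of heading over tillering (vertical axis) for NRAMP5, transcript -01 of NRAMP1, HMA3 and HMA2 in each genotype (circles) and as the mean over the 3 genotypes (squares), with the standard error as bars and filled symbols for calls. NRAMP5 was called in R9308 (2.59) and for the mean (2.24), and no other transcript shown was called.

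Lsi1 and Lsi2, the silicon influx and efflux transporters of the same exodermal and endodermal cells, were among the 4 root markers. Lsi1 (Os02t0745100-01) rose by 2.40 (SE 0.26) on the log2 scale from tillering to heading as the mean over the genotypes (edgeR adjusted p = 0.00415) and Lsi2 (Os03t0107300-01) by 3.19 (SE 0.30, adjusted p = 0.00328). RCc3 (Os02t0662000-01), a root-specific protein, fell by 3.59 (SE 0.67, adjusted p = 0.0127). The fourth root marker, CASP1 (Os04t0684300-01), was not called in this contrast. At tillering its means were 8.14 RPKM in R9308, 14.5 RPKM in Xieqingzao B and 34.4 RPKM in the hybrid, whose libraries were at 6.38 and 62.5 RPKM. At heading its means were 7.58 RPKM in R9308, 4.29 RPKM in Xieqingzao B and 9.15 RPKM in the hybrid. The summed level of the 4 root markers was 508 to 1120 RPKM at tillering and 645 to 1761 RPKM at heading. Their part in the NRAMP5 result was not tested. In RNA of whole roots, a change in the number of cells of a type and a change in the RNA of each cell cannot be told apart.

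NRAMP1 was a low transcript in every group but 1, Xieqingzao B at heading. Os07t0258400-01, its main transcript (2082 bases), was at 26.4 and 49.4 RPKM there. In the other heading libraries it was at 0.749 and 4.08 RPKM in R9308 and at 1.75 and 2.25 RPKM in the hybrid. At tillering it was at 2.41 and 1.88 RPKM in R9308, at 1.60 and 5.59 RPKM in Xieqingzao B and at 0.995 and 2.64 RPKM in the hybrid. Both heading libraries of Xieqingzao B were thus above the other 10 libraries, and those 10 overlapped between all neighbouring groups. Heading libraries of Xieqingzao B above those of R9308 were found for 34.9% of all transcripts tested. They were above those of the hybrid at heading for 37.7% and above its own tillering libraries for 29.7%. In order, the means were 37.9 ± 16.3 RPKM in Xieqingzao B at heading, 3.59 ± 2.82 in Xieqingzao B at tillering, 2.41 ± 2.36 in R9308 at heading, 2.15 ± 0.375 in R9308 at tillering, 2.00 ± 0.353 in the hybrid at heading and 1.82 ± 1.16 in the hybrid at tillering (SD, n = 2 libraries each).

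At heading, Os07t0258400-01 of NRAMP1 was higher in Xieqingzao B than in R9308 by 3.84 (SE 0.78) on the log2 scale, 14.3-fold (edgeR's quasi-likelihood test, adjusted p = 0.0358), and lower in the hybrid than in Xieqingzao B by 4.10 (SE 0.79), 17.2-fold (adjusted p = 0.0392). The difference between the hybrid and R9308 was -0.27 (SE 0.76, adjusted p = 0.902 in edgeR's test). The hybrid was at 9.94% of the mid-parent value and its libraries lay within the range of those of R9308. Of the 5 transcripts, the 2 of NRAMP1 were called in each of the 2 contrasts with Xieqingzao B at heading. In the parental contrast 10.8% of all transcripts tested were called and 4.4% were called higher, and in the contrast of the hybrid with Xieqingzao B 8.1% were called and 2.75% were called lower. The contrast of the hybrid with R9308 at heading held no call among the 5, where 0.886% of all transcripts were called.

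These calls of NRAMP1 rested on few libraries. For Os07t0258400-01, leaving out 1 library at a time, the log2 difference of Xieqingzao B from R9308 lay between 3.09 and 5.51 and the call was lost in 5 of 6 fits (edgeR adjusted p up to 0.0887, kept only without replicate 2 of R9308). The difference of the hybrid from Xieqingzao B lay between -4.48 and -3.59, and the call was lost without either library of Xieqingzao B (edgeR adjusted p = 0.0657 and 0.0641) or of the hybrid (0.203 and 0.204). In Xieqingzao B alone, the rise of NRAMP1 from tillering to heading was 3.36 (SE 0.87) on the log2 scale and did not pass (edgeR adjusted p = 0.0998). The change in R9308 was 0.23 (SE 0.82, adjusted p = 0.908), or 0.40 without its replicate 1 at tillering, and that in the hybrid 0.26 (SE 0.83, adjusted p = 0.869). The difference of Xieqingzao B from R9308 in this change was 3.13 (SE 1.16, edgeR's interaction test, adjusted p = 0.337) and that of the hybrid from Xieqingzao B was -3.09 (SE 1.17, adjusted p = 0.280). The exact permutation test over the stages gave p = 0.167 for NRAMP1 (12 libraries, two-sided). The green tissue markers were at 132 to 214 RPKM in Xieqingzao B at heading and at 166 to 367 RPKM in the hybrid, whose NRAMP1 level was 2.00 ± 0.353 RPKM. A part of green tissue in the NRAMP1 levels was not tested.

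The second NRAMP1 transcript, Os07t0258400-02 (1359 bases), followed the same order at heading. It had 88 and 259 counts in Xieqingzao B at heading (5.57 and 18.3 RPKM), 4 and 10 counts in R9308 and 3 and 0 counts in the hybrid, where a count of 0 allows up to 3 counts. Summed over the libraries of each group and scaled by library totals, the level in Xieqingzao B was 95.8-fold that of the hybrid (95% exact interval 32.5 to 467, from 347 and 3 counts) and 21.1-fold that of R9308 (12.4 to 39.0, from 347 and 14 counts). For the first transcript the same ratios were 18.6 (14.8 to 23.8, from 1710 and 76 counts) and 15.0 (12.2 to 18.6, from 1710 and 97 counts). These intervals cover counting error only. edgeR's quasi-likelihood test called Os07t0258400-02 in both contrasts at heading, with adjusted p of 0.0341 between the hybrid and Xieqingzao B and 0.0476 between the parental lines, and both calls were lost in 5 of 6 fits that left out 1 library. At tillering the transcript had 14 and 39 counts in Xieqingzao B, 0 and 4 counts in R9308 and 17 and 0 counts in the hybrid.

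The second transcript made up 12.1% (95% Wilson interval 9.94 to 14.7) and 19.5% (17.4 to 21.7) of the NRAMP1 counts in the 2 heading libraries of Xieqingzao B, so that its share differed between replicates by more than counting error. In the hybrid at tillering it was 17 of 34 counts in replicate 1 and 0 of 69 counts in replicate 2. The split of counts between these transcripts, and between NRAMP1 and NRAMP5 where their sequences are alike, was estimated when reads were assigned and is uncertain to that extent. With both transcripts added, the NRAMP1 level was 0.790 and 0.983 of the NRAMP5 level in the heading libraries of Xieqingzao B. At heading the ratio was 0.0173 and 0.0547 for R9308, and 0.0914 and 0.105 for the hybrid. The tillering ratios were 0.188 and 0.156 for R9308, 0.229 and 1.25 for Xieqingzao B, and 0.238 and 0.492 for the hybrid. NRAMP5 was therefore the more abundant of the pair per length in 11 of 12 libraries, the exception being replicate 2 of Xieqingzao B at tillering.

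**Figure D3:**
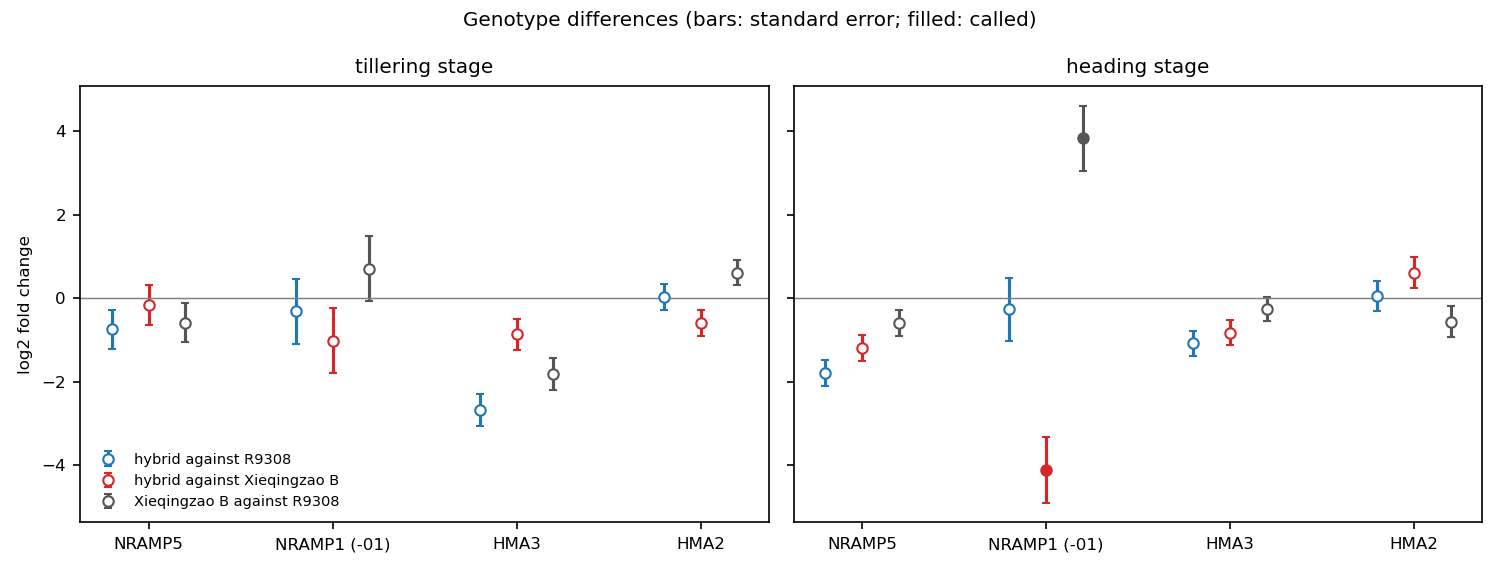
Log2 fold change between genotypes (vertical axis, the same scale in both panels) at tillering and at heading for NRAMP5, transcript -01 of NRAMP1, HMA3 and HMA2, with the standard error as bars and filled symbols for calls. The calls shown are both of NRAMP1 at heading, 3.84 for Xieqingzao B against R9308 and -4.10 for the hybrid against Xieqingzao B, and the largest uncalled difference is that of HMA3 between the hybrid and R9308 at tillering (-2.68).

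HMA3 was lowest in the hybrid at both stages. At tillering Os07t0232900-00 (3015 bases) was at 8.70 and 7.10 RPKM in R9308, at 2.41 and 2.18 RPKM in Xieqingzao B and at 1.41 and 1.13 RPKM in the hybrid, and the 3 genotypes were separated from each other. At heading it was at 5.47 and 5.47 RPKM in R9308, at 3.91 and 6.11 RPKM in Xieqingzao B and at 2.24 and 2.93 RPKM in the hybrid, and the parental lines overlapped. The hybrid was below all 4 parental libraries at either stage, at 25% of the mid-parent value at tillering and 49.4% at heading. Libraries of the hybrid below those of R9308 were found for 25.3% of all transcripts tested at tillering and 26.8% at heading, and below those of Xieqingzao B for 19.4% and 37.7%. The share below both parental lines at once was not taken. Tillering libraries of Xieqingzao B below those of R9308 were found for 21.4%. In the order of levels, HMA3 went from 7.90 ± 1.13 RPKM in R9308 at tillering over 5.47 ± 0.00187 in R9308 at heading, 5.01 ± 1.55 in Xieqingzao B at heading, 2.59 ± 0.482 in the hybrid at heading and 2.29 ± 0.157 in Xieqingzao B at tillering to 1.27 ± 0.197 in the hybrid at tillering (SD, n = 2 libraries each). Only R9308 and Xieqingzao B at heading, and the hybrid at heading and Xieqingzao B at tillering, overlapped among these neighbours.

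None of the HMA3 differences was called by edgeR's quasi-likelihood test. At tillering the log2 difference of Os07t0232900-00 was -2.68 (SE 0.39, adjusted p = 0.154) between the hybrid and R9308, 6.40-fold lower, and it ranked at place 115 of 28434 transcripts by p. It was -1.82 (SE 0.38, edgeR adjusted p = 0.206) between Xieqingzao B and R9308 and -0.86 (SE 0.38, adjusted p = 0.608) between the hybrid and Xieqingzao B. In these contrasts 0.0106%, 0.0246% and 0% of all transcripts were called, in the last of which 2438 had an unadjusted p below 0.05. The first and second of these differences passed in 3 of 7 alternative settings. Among these were DESeq2 (adjusted p = 1.19e-07 and 0.000716) and a fit of the 12 libraries together (edgeR adjusted p = 0.0136 and 0.0304). In the settings where they did not pass, the adjusted p of edgeR's test reached 0.276 and 0.426. Without replicate 1 of R9308, the library with high green tissue markers, the difference between the hybrid and R9308 was -2.51 on the log2 scale (edgeR adjusted p = 0.543), and that between the parental lines was -1.68 (adjusted p = 0.795). At heading the log2 differences of HMA3 were -1.07 (SE 0.30, edgeR adjusted p = 0.187) between the hybrid and R9308, -0.82 (SE 0.30, adjusted p = 0.147) between the hybrid and Xieqingzao B and -0.25 (SE 0.30, adjusted p = 0.627) between the parental lines.

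The stage differences of HMA3 had opposite signs. Os07t0232900-00 was lower at heading than at tillering in R9308, with a log2 difference of -0.46 (SE 0.31, edgeR adjusted p = 0.430), and higher in Xieqingzao B, with 1.08 (SE 0.32, adjusted p = 0.126), and in the hybrid, with 1.14 (SE 0.32, adjusted p = 0.0871). The libraries of the 2 stages were separated in each genotype, as they were for 33.8% of all transcripts in the direction of R9308, 29.7% in that of Xieqingzao B and 25.7% in that of the hybrid. None passed, and the mean over the genotypes was 0.58 (SE 0.18, edgeR adjusted p = 0.0615). Without replicate 1 of R9308 at tillering, the HMA3 difference was -0.33 in R9308 and 0.63 for the mean (edgeR adjusted p = 0.765 and 0.0910). The stage difference in the hybrid exceeded that in R9308 by 1.60 (SE 0.45, edgeR's interaction test, adjusted p = 0.182) and that in Xieqingzao B exceeded it by 1.54 (SE 0.44, adjusted p = 0.244). No transcript of the 29560 was called in either interaction, where 4666 and 3668 had an unadjusted p below 0.05. The exact permutation test gave p = 0.148 for HMA3 over the stages (12 libraries, two-sided).

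The locus with the number just before HMA3, Os07t0232800, which the annotation describes as similar to a zinc transporter of the ZIP family, had the same order of genotypes by mean at both stages. Of the 10 listed ZIP and IRT metal transporter transcripts tested at tillering, Os07t0232800-00 included, 9 were lower in the hybrid than in R9308. Lower in the hybrid than in Xieqingzao B were 8, and lower in Xieqingzao B than in R9308 were 8. The median log2 differences were -1.54, -1.09 and -0.47, beside 0.002, 0.05 and -0.002 over all transcripts tested. At heading 5, 7 and 6 of 12 were lower. Os07t0232800-00 was at 68.9 and 28.0 RPKM in R9308 at tillering, at 7.13 and 1.06 RPKM in Xieqingzao B and at 0.979 and 0.768 RPKM in the hybrid. At heading it was at 18.2 and 14.0 RPKM in R9308, at 7.33 and 2.70 RPKM in Xieqingzao B and at 2.85 and 2.78 RPKM in the hybrid. Its libraries were separated between the genotypes at tillering, and those of Xieqingzao B and the hybrid overlapped at heading. Tillering libraries of the hybrid lay below those of R9308 for 25.3% of all transcripts tested and below those of Xieqingzao B for 19.4%. Those of Xieqingzao B lay below those of R9308 for 21.4%. The log2 difference of Os07t0232800-00 between the hybrid and R9308 was -5.84 (SE 1.1, edgeR adjusted p = 0.159) at tillering and -2.50 (SE 0.52, adjusted p = 0.112) at heading, and that between Xieqingzao B and R9308 was -3.58 (SE 0.97, adjusted p = 0.312) and -1.80 (SE 0.50, adjusted p = 0.0788). None of these passed the test. The value of 68.9 RPKM was that of replicate 1 of R9308, the library with 7230 RPKM of green tissue markers. Without it R9308 was at 28.0 RPKM at tillering, and the log2 difference of Os07t0232800-00 from R9308 was -5.04 in the hybrid (edgeR adjusted p = 0.560) and -2.82 in Xieqingzao B (adjusted p = 1), a setting chosen after seeing the data.

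**Figure D4:**
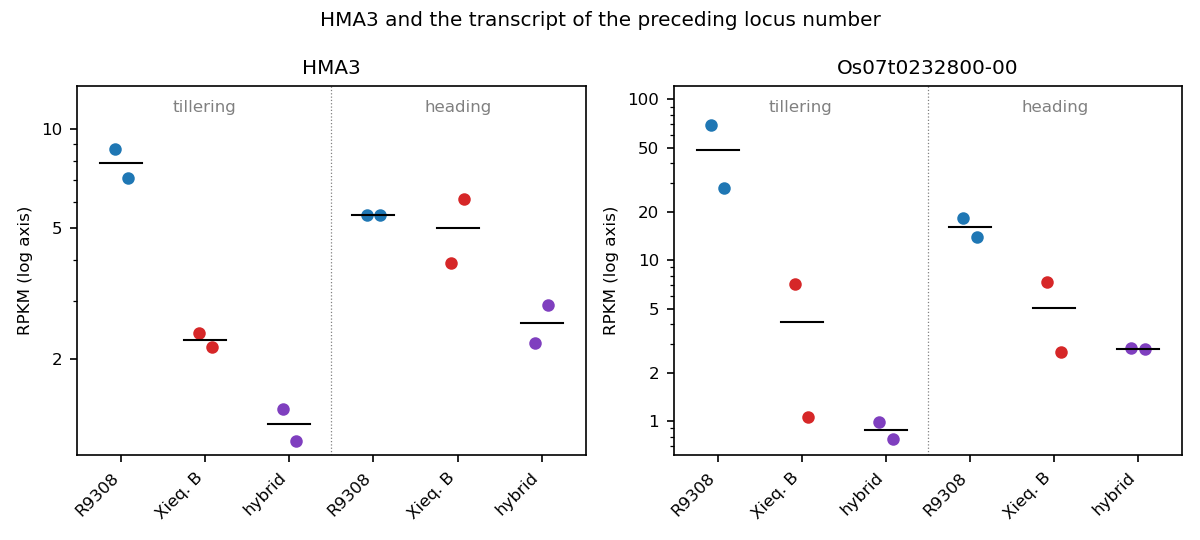
Levels of HMA3 and of Os07t0232800-00 (vertical axis, RPKM on a log scale) in the 2 libraries (points) of each genotype and stage, with the mean as a line. In both panels the hybrid had the lowest and R9308 the highest mean at each stage, from 1.27 to 7.90 RPKM for HMA3 and from 0.873 to 48.5 RPKM for Os07t0232800-00 at tillering.

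HMA2 varied least of the 4 genes. Os06t0700700-01 (1753 bases) was at 8.70 and 11.4 RPKM in R9308 at tillering, at 16.5 and 15.1 RPKM in Xieqingzao B and at 10.6 and 10.8 RPKM in the hybrid. At heading it was at 18.9 and 14.0 RPKM in R9308, at 8.2 and 16.3 RPKM in Xieqingzao B and at 15.1 and 19.0 RPKM in the hybrid. The highest library was therefore near 19.0 RPKM and the lowest at 8.2 RPKM. In order, the means were 17 ± 2.77 RPKM in the hybrid at heading, 16.5 ± 3.48 in R9308 at heading, 15.8 ± 0.958 in Xieqingzao B at tillering, 12.3 ± 5.73 in Xieqingzao B at heading, 10.7 ± 0.171 in the hybrid at tillering and 10.0 ± 1.90 in R9308 at tillering, and the libraries of all neighbours in this order overlapped (SD, n = 2 libraries each).

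At tillering the libraries of HMA2 in Xieqingzao B were above those of R9308, as were those of 23.9% of all transcripts tested, and above those of the hybrid, as for 19.4%. The log2 difference of Os06t0700700-01 was 0.62 (SE 0.31, edgeR adjusted p = 0.675) between Xieqingzao B and R9308, -0.58 (SE 0.31, adjusted p = 0.642) between the hybrid and Xieqingzao B and 0.03 (SE 0.31, adjusted p = 0.964) between the hybrid and R9308. At heading these differences were -0.56 (SE 0.37, edgeR adjusted p = 0.384), 0.61 (SE 0.37, adjusted p = 0.330) and 0.05 (SE 0.37, adjusted p = 0.965). The hybrid mean of HMA2 was 82.6% of the mid-parent value at tillering and 119% at heading. Its libraries overlapped with those of both parental lines at heading and with those of R9308 at tillering. From tillering to heading the log2 difference was 0.78 (SE 0.35, edgeR adjusted p = 0.254) in R9308, 0.79 (SE 0.35, adjusted p = 0.204) in the hybrid and -0.41 (SE 0.35, adjusted p = 0.553) in Xieqingzao B, and the mean over the genotypes was 0.39 (SE 0.20, adjusted p = 0.223). Without replicate 1 of R9308 at tillering, the HMA2 differences from R9308 at that stage were -0.14 for the hybrid and 0.43 for Xieqingzao B, and the stage differences were 0.59 in R9308 and 0.32 for the mean. The exact permutation test over the stages gave p = 0.296 for HMA2 (12 libraries, two-sided).

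The 4 genes were compared with other members of their families, with other families of metal transporters and with loci listed for cadmium handling. Some of these are annotated for other metals, such as copper. Of 34 other loci listed from the NRAMP, HMA, ZIP and IRT and MTP families and from cadmium handling, 33 were in the table, with 44 transcripts, of which 40 passed the filter on low counts at tillering, 41 at heading and 42 over both stages. None of the 40 was called at tillering, with a median log2 difference between the hybrid and R9308 of -0.35 beside 0.00 over all transcripts tested. At heading none of the 41 was called between the hybrid and R9308. Between the hybrid and Xieqingzao B none was higher and 3 were lower in the hybrid, beside 5.35% and 2.75% of all transcripts tested. Between Xieqingzao B and R9308 1 was higher and 1 was lower, beside 4.4% and 6.36% of all transcripts. The median log2 difference of the 41 was -0.15 in the contrast of the hybrid with Xieqingzao B, beside -0.03 over all transcripts.

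Among the NRAMP family, Os03t0208500-01, described as an integral membrane protein, was at 56.4 and 30.4 RPKM in Xieqingzao B at heading, at 13.4 and 19.8 RPKM in R9308 and at 10.7 and 9.63 RPKM in the hybrid, and was lower in the hybrid than in Xieqingzao B by 1.96 (SE 0.37) on the log2 scale (edgeR adjusted p = 0.0361). Together with both NRAMP1 transcripts, 3 of the 11 NRAMP family transcripts tested were called lower in the hybrid than in Xieqingzao B at heading, beside 2.75% of all transcripts, and none was called higher. Of these 3, 2 are transcripts of the single NRAMP1 locus and are not independent. The other 2 calls of that contrast were Os03t0178100-00, a P-type ATPase described as translocating copper, with a log2 difference of -1.65 (SE 0.32, edgeR adjusted p = 0.0393), and Os01t0972200-00, a zinc transporter of the ZIP family, with -1.01 (SE 0.16, adjusted p = 0.0278). Between the parental lines at heading, Os05t0472700-01, described as a metal transport protein of the ZIP and IRT list, was higher in Xieqingzao B by 3.28 (SE 0.63, edgeR adjusted p = 0.0310). Its levels were low, at 4.87 and 2.35 RPKM in Xieqingzao B and at 0.311 and 0.358 RPKM in R9308. In the same contrast Os05t0128400-01, similar to the vacuolar zinc transporter MTP1 of Arabidopsis, was lower in Xieqingzao B by 1.19 (SE 0.16, edgeR adjusted p = 0.0122). Os03t0667500-01, the locus of the iron transporter IRT1 and chosen after its values were seen, was at 7.54 and 27.0 RPKM in Xieqingzao B at heading, where NRAMP1 was high, with a log2 difference from R9308 of 2.47 (SE 0.64, edgeR adjusted p = 0.0662) that did not pass.

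From tillering to heading, 2 of the 42 other transcripts rose and 3 fell as the mean over the genotypes, with a median log2 difference of 0.16 beside -0.04 over all transcripts. Of all transcripts tested, 4.02% rose and 7.18% fell in this contrast. Os01t0972200-00 rose by 1.77 (SE 0.35) on the log2 scale (edgeR adjusted p = 0.0157) and Os05t0472400-00, similar to a ZIP metal ion transporter, rose by 3.62 (SE 0.71, adjusted p = 0.0151) from levels of 0 to 0.114 RPKM to levels of 0.36 to 1.36 RPKM. Os02t0131800-01, a root-specific transporter of the NRAMP family, fell by 1.38 (SE 0.26, edgeR adjusted p = 0.0127), in contrast to the rise of NRAMP5. Os02t0629800-01, of the defensin family and listed for cadmium handling, fell by 4.07 (SE 0.73, adjusted p = 0.0117), and Os03t0226400-02, a cation diffusion facilitator listed with the MTP family, fell by 1.53 (SE 0.19, adjusted p = 0.00464). Of single genotypes, the hybrid had 1 rise, of the ZIP and IRT transcript Os03t0411800-01 by 1.93 (SE 0.37, edgeR adjusted p = 0.0468), and 1 fall, of Os03t0226400-02 by 1.77 (SE 0.33, adjusted p = 0.0449), beside 1.08% and 0.595% of all transcripts, and the parental lines had none.

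The transcripts whose levels ran most alike to each of the 4 genes were taken by Pearson's r of log2(RPKM + 1) over the 12 libraries, among 16688 transcripts with a mean of at least 5 RPKM. These values are descriptions over libraries that share their genotype and stage. Those nearest to NRAMP5 were Os01t0803900-01, a cytochrome P450 (r = 0.973), Os12t0162100-02, similar to a MAP kinase (r = 0.962), and Os07t0101300-01, a bHLH domain protein (r = 0.956). NRAMP1 had as nearest Os08t0427500-01, of the Rad4 family of DNA repair proteins (r = 0.957), Os07t0210100-01, an Exo70 exocyst subunit (r = 0.946), and Os02t0137700-01, with an NAD(P)-binding domain (r = 0.944). HMA3 had Os10t0391200-00, an F-box protein (r = 0.956), Os01t0946600-02, similar to a beta-glucanase (r = 0.955), and Os09t0129600-01, with a recombinase domain (r = 0.951). HMA2 had Os08t0206400-01, similar to a potassium transporter (r = 0.888), Os05t0163400-01, with a RING-type zinc finger (r = 0.881), and Os12t0581900-01, with a C2H2-like zinc finger (r = 0.878). Among the 4 genes themselves, r was 0.562 between NRAMP5 and HMA3, 0.414 between NRAMP5 and NRAMP1 and -0.16 to 0.286 for the other pairs. NRAMP5, NRAMP1 and HMA2 were not among the nearest of any of the 4 genes. HMA3, with a mean of 4.09 RPKM, was below the limit of 5 RPKM and so was not ranked for the others.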

How the data were processed

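Root poly-A RNA of 3 genotypes at 2 stages was sequenced as paired reads, with 12 libraries whose labels give genotype and stage. Quality-filtered reads were mapped by the authors with RSEM 1.1.11, on build 5.0 of the Nipponbare genome (IRGSP). CASAVA 1.8 is also named in the submitters' processing notes. The deposited counts are whole numbers per annotated transcript, without normalization. The RPKM values were made by the authors from these counts, and recomputing them from counts, transcript lengths and library sums gave a relative difference of at most 4.53e-08. The table also holds the authors' log2 fold changes, p-values and FDR between genotypes, which were not used.

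The tool for the counts was edgeR 4.0.16 with limma 3.58.1 under R 4.3.3. Transcripts were filtered with filterByExpr, scaled with TMM factors and tested by quasi-likelihood. Genotypes were compared within a stage (28434 transcripts tested at tillering, 27187 at heading) and stages and interactions over all 12 libraries (29560 transcripts). All 5 transcripts passed the filter in each. A call required a Benjamini-Hochberg adjusted p, over all transcripts tested, of at most 0.05 and a change of at least 2-fold. The SE was taken from the F statistic. All p-values come from these fits, except those of the exact permutation tests and those named as DESeq2's or as another alternative's. The main transcript of a locus has its highest mean RPKM. The tests were run on simulated counts first. Alternatives were DESeq2 1.42.0, scaling by library size alone, no filter, a replicate block, sums by locus, an exact test with tagwise dispersions, a fit of the 12 libraries together, another minimum for the likeness and leaving out each library, for the locus beside HMA3 only replicate 1 of R9308 at tillering, a choice made after seeing the data. Python 3.11.15 served for all other values and the figures (scipy 1.17.1, pandas 2.3.3, numpy 2.4.6, matplotlib 3.10.9).

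Totals of 8209696 to 15830233 counts per library, with 2 libraries per group, set the precision. The spread was estimated with prior degrees of freedom of 2.57 at tillering and 2.61 at heading. The members and lists were chosen with earlier results of these data known. From the other transporter lists, every called transcript was named, and the locus that precedes HMA3. Gene names are those of the 4 loci, and other loci go by number and annotation. RefSeq names (assembly ASM3414082v1) matched 3 of the 4 loci and gave the gene order. Since its assembly differs from the build used for the counts, no coordinates are given. Sequences were not used here, and 1 listed locus was not analysed here.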

Additional observations from a re-analysis of the deposited data

Results flagged for a closer look

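The change of HMA3 (Os07t0232900-00) from tillering to heading went in opposite directions in the genotypes. It was -0.46 on the log2 scale in R9308, where both heading libraries were below both tillering libraries, and 1.08 in Xieqingzao B and 1.14 in the hybrid, where both heading libraries were above both tillering libraries. Separation in these directions was found for 33.8%, 29.7% and 25.7% of all transcripts tested. The share of transcripts separated in opposite directions between genotypes was not taken. The difference between the genotypes in this change was tested by edgeR's interaction test and did not pass (adjusted p = 0.182 for the hybrid against R9308 and 0.244 for Xieqingzao B against R9308). DESeq2 called both interactions (adjusted p = 0.0382 and 0.0482), as 1 of 5 alternative settings. In the other settings neither was called, and the adjusted p of edgeR's test reached 0.250 and 0.326. Without replicate 1 of R9308 at tillering, which had 7230 RPKM of green tissue markers, the change in R9308 was -0.33, and the interactions were 1.47 (edgeR adjusted p = 0.393) and 1.41 (adjusted p = 0.656).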

How the results depend on the processing

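The alternatives other than leaving out a library gave 288 values for 48 log2 fold changes of the 5 transcripts. Some of these 48 are not given above, and the NRAMP1 change between the stages in the hybrid is not among them. Of the 288 values, 258 kept their direction and their side of the thresholds, 21 gained a call, 7 lost one and 2 changed sign. The sign changes were those of Os07t0258400-01 (NRAMP1) with a replicate block, 0.027 between the hybrid and R9308 at heading and -0.17 between the stages in R9308, and neither value had been called. Library size scaling changed none of the calls of these 48. The cause of the other differences was not tested.

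The number of calls over all transcripts differed strongly between the tests. At tillering, between the hybrid and R9308 (3 calls), DESeq2 called 2589, no filter gave 6, sums by locus 10, the exact test with tagwise dispersions 1084 and the fit of 12 libraries together 1047. Between the hybrid and Xieqingzao B (0 calls) DESeq2 called 847, the exact test 300 and the fit of 12 libraries 81. Between the parental lines (7 calls) DESeq2 called 1342, no filter gave 27, sums by locus 114, the exact test 1567 and the fit of 12 libraries 584. At heading, between the hybrid and R9308 (241 calls), DESeq2 called 1316, sums by locus 601, the exact test 1981 and the fit of 12 libraries 65. Between the hybrid and Xieqingzao B (2203 calls) DESeq2 called 3737, the exact test 3878 and the fit of 12 libraries 1036, and between the parental lines (2926 calls) the fit of 12 libraries called 1731. From tillering to heading DESeq2 called 2942 in R9308 (356 calls), 2773 in Xieqingzao B (26 calls) and 3909 in the hybrid (496 calls), and sums by locus gave 1003, 871 and 1612. No filter gave 329 in the hybrid. In the interactions (0 calls each) DESeq2 called 1673 for the hybrid against R9308, 1446 for the hybrid against Xieqingzao B and 1177 for the parental lines, and sums by locus gave 5 for the hybrid against Xieqingzao B.

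Of the 5 transcripts, at tillering 1 (HMA3) was called between the hybrid and R9308 and 1 (HMA3) between the parental lines with each of DESeq2, the exact test and the fit of 12 libraries. At heading, 1 (NRAMP5) was called between the hybrid and R9308 with DESeq2, sums by locus and the exact test. The fit of 12 libraries left 1 of the 2 NRAMP1 calls in each contrast with Xieqingzao B, and 1 was left between the parental lines without a filter and with sums by locus, where a locus is a single value. From tillering to heading DESeq2 called 3 in Xieqingzao B, 2 in the hybrid and 2 for the mean over the genotypes, sums by locus called 1 in Xieqingzao B, and DESeq2 called 1 in each interaction with R9308. With a minimum mean of 1 RPKM in place of 5, 1 of the 3 transcripts most like NRAMP1 stayed.

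Same-numbered libraries did not deviate in a common direction (r of -0.355 to 0.0429 over the 6 pairs of genotypes), and the main fits did not pair the samples by replicate number. The value of -0.355 was that of Xieqingzao B and the hybrid at tillering. A factor shared by libraries of different groups was not tested. With a replicate block the calls were 0 between the hybrid and R9308 and 0 between the parental lines at tillering, 0, 343 and 1277 at heading for the hybrid against R9308, the hybrid against Xieqingzao B and the parental lines, and 58, 0 and 0 between the stages in R9308, Xieqingzao B and the hybrid. Of the 5 transcripts, 0 were then called between the hybrid and Xieqingzao B, 1 between the parental lines at heading and 0 between the stages in R9308.

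Leaving out 1 library at a time, the calls over all transcripts ranged from 0 to 0 for the hybrid against R9308 and 0 to 3 for the parental lines at tillering. At heading they ranged from 0 to 281 for the hybrid against R9308, 20 to 2638 for the hybrid against Xieqingzao B and 612 to 2863 for the parental lines. Between the stages they ranged from 0 to 1588 in R9308, 0 to 1009 in Xieqingzao B, 0 to 5998 in the hybrid and 1267 to 5475 for the mean, and in the interactions from 0 to 1503, 0 to 1906 and 0 to 366 in the order given above. Of the 5 transcripts, 0 to 1 were called in each of the contrasts at heading and between the stages in R9308 and Xieqingzao B, and 0 to 2 between the stages in the hybrid. The mean log2(RPKM + 1) difference between the stages ranged from 0.83 to 1.34 for Os07t0258400-01 and from 0.14 to 0.44 for Os06t0700700-01 (HMA2). Signs changed for differences that had not been called. Those of HMA2 between the hybrid and R9308 ranged from -0.14 to 0.27 at tillering and -0.15 to 0.29 at heading, and between the stages in Xieqingzao B from -1.0 to 0.0014. Those of NRAMP5 (Os07t0257200-01) between the hybrid and Xieqingzao B at tillering ranged from -0.81 to 0.29, and those of HMA3 (Os07t0232900-00) between the parental lines at heading from -0.60 to 0.026. For Os07t0258400-01 the ranges were -1.80 to 0.15 for the hybrid against Xieqingzao B and -0.45 to 1.34 for the parental lines at tillering, -1.01 to 1.41 for the hybrid against R9308 at heading and -1.43 to 0.96 between the stages in R9308.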
